A study of Mus musculus with 18 samples.

Results

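Genes of antigen presentation by MHC class II and their transcriptional coactivator Ciita were followed in B cells stimulated in vivo with and without inhibition of BTK. The 10 genes were Ciita, Cd74, H2-Aa, H2-Ab1, H2-Eb1, H2-DMa, H2-Oa, H2-Ob, Ctss and Lgmn. Each probe set whose only gene symbol in the platform annotation is one of these names was taken, which gave 18 of the 45101 probe sets of the array and 10 of its 18193 named genes. All 18 probe sets passed the filter on low signals, and for each gene the probe set of highest mean signal was used unless another is named. A further probe set lists 2 symbols, H2-Ob among them, and was left out by this rule.

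RNA came from CD23-positive B lymphocytes of the spleen of C57BL/6J mice, measured on Affymetrix Mouse Genome 430 2.0 arrays. Mice had been injected with vehicle or with the drug PF-303, which inhibits Bruton's tyrosine kinase (BTK), followed after 2 h by PBS or by anti-IgD, an antibody that ligates the IgD form of the B-cell receptor. Cells were taken 2 h after the antibody. Vehicle was followed by PBS on 4 arrays and by anti-IgD on 4, and PF-303 was followed by PBS on 5 and by anti-IgD on 5. The labels give neither the age of the mice nor whether samples came from different mice, so the p-values reflect the sample-to-sample spread alone, and part of that may be technical. In bulk RNA, fewer cells of a type and less RNA per cell cannot be told apart.

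B cells take up antigen through their receptor and present its peptides on class II molecules to helper T cells. The classical molecule I-A is a pair of the alpha chain H2-Aa and the beta chain H2-Ab1, and I-E pairs H2-Ea with H2-Eb1. C57BL/6 mice carry the b haplotype, in which H2-Ea is not transcribed, and none of the 3 H2-Ea probe sets had a signal above 17.05. New chains bind Cd74, the invariant chain, which fills the peptide groove and guides the complex to endosomes. There Ctss, a cathepsin, and Lgmn, the asparagine endopeptidase legumain, cut the invariant chain and antigens. H2-DM exchanges the last invariant chain fragment for peptide, and H2-O, found mainly in B cells, inhibits H2-DM. Ciita does not bind DNA. It joins RFX, CREB and NF-Y factors that sit on the X and Y boxes of class II promoters.

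The Y box, core letters ATTGG, was searched on both strands of the 250 bases before each transcription start in a RefSeq promoter table (GRCm38.p6). Entries were found for 7 of the 10 genes, and Ciita, Cd74 and H2-Ab1 had none. The stretch from 100 to 31 bases before the start is shown for the 4 class II chains that have the Y core there, 5′ to 3′ on the strand of the gene. Capitals mark the Y core and, where it matched, the X core AGNNACNGA, on either strand, so that the Y core of the other strand reads CCAAT.
H2-Aa: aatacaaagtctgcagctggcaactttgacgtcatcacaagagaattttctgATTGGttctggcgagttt
H2-Eb1: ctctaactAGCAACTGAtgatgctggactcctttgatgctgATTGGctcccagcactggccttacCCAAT
H2-Oa: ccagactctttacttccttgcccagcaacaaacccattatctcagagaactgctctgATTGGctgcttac
H2-Ob: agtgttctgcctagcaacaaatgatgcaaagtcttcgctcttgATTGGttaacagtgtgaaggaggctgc

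All of these sequences lie on chromosome 17, on the minus strand for H2-Aa (chr17:34287854-34287923) and the plus strand for H2-Eb1 (chr17:34305767-34305836), H2-Oa (chr17:34092279-34092348) and H2-Ob (chr17:34238805-34238874). On the strand of the gene the Y core began between 43 and 59 bases before the start, and H2-Eb1 held another on the opposite strand, at 35 bases. Any Y core in the 250 bases was found in 33.8% of the 32851 promoters of the table and any X core in 14.7%. An X core followed within 40 bases by a Y core on the same strand was found in 0.438% of them, and among the 10 genes in H2-Eb1. The search took exact matches to the core letters only, so an X box of other letters would be missed. H2-Oa held X cores farther upstream, at 141 bases before its start and, on the opposite strand, at 187. The 2 starts listed for Lgmn and for H2-DMa gave 1 Y core each, at 88 and 198 bases, and Ctss held neither core.

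The arrays differed in one way that touched these genes. Control RNAs added to every hybridisation (BioB, BioC, BioD and Cre) were at 2.08 to 3.32 times their median on 6 arrays and at 0.512 to 1.43 times on the other 12. The 6 arrays were replicates 3 and 4 of either PBS group and, among stimulated mice given PF-303, replicates 1 and 3. No array of anti-IgD with vehicle was among them. The brightest probe sets were higher on the same arrays, and the level exceeded by the top 0.1% of probe sets was 10645 to 13558 there against 5269 to 8629 elsewhere. Results are therefore given with all 18 arrays and, where the value or the call moved, with the 12. The 12 were 2 of PBS with vehicle, 3 of PBS with PF-303, 4 of anti-IgD with vehicle and 3 of anti-IgD with PF-303. Fits on them thus rest on fewer arrays, above all for PBS with vehicle.

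Markers of follicular B cells were high throughout, with Ms4a1 (CD20) between 3662 and 10648 and Fcer2a (CD23) between 1543 and 2979. Of the 8 T-cell genes measured, 4 passed the filter, with highest signals of 45.6 for Cd8a, 40.8 for Cd28, 35.2 for Cd3d and 27.2 for Cd3g, and 3 (Cd3e, Cd4 and Cd8b1) were below the filter level of 15.2 on every array. The 8 summed to 52.7 to 149.8 over all arrays. The 8 follicular B genes measured summed to 18316 to 21994 with anti-IgD and vehicle and to 22930 to 43247 over the other groups. This sum was thus lowest in the group where each of the 10 genes had its lowest mean log2 signal. The arrays of high control signal all lie in the other groups. Singly, Cd79b (-1.09), Cd79a (-0.99), Cd22 (-0.80), Pax5 (-0.73) and Fcer2a (-0.51) were called lower after anti-IgD with vehicle. Ms4a1 (-0.57, adjusted p = 0.071), Cr2 (-0.09) and Fcmr (-0.05) were not called. Of the dendritic cell list, 7 of the 9 genes measured passed the filter, Itgax did not exceed 49.9, and the sum came mostly from Ccr7, which B cells also express. That sum was 906 to 1216 with PBS and vehicle, 1047 to 1323 with PBS and PF-303, 1379 to 1754 with anti-IgD and vehicle and 1625 to 2242 with anti-IgD and PF-303. Macrophage and monocyte genes, 11 of 12 over the filter and Lyz2 the brightest, summed to 1064 to 3452 over all arrays. Neither list had a gene below the filter level on every array. The part of these other cells in the results was not tested.

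Ciita was lower after anti-IgD when mice had received vehicle and higher after anti-IgD when they had received PF-303. Its signals were 639, 611, 779 and 1040.2 with PBS and vehicle, and 643, 589, 657, 591 and 639 with PBS and PF-303. With anti-IgD and vehicle they were 579, 494, 556 and 530.1, and with anti-IgD and PF-303 they were 1055, 855, 839, 950.0 and 774. The anti-IgD groups did not overlap each other, and neither overlapped the PBS group of the same drug. PF-303 against vehicle under anti-IgD gave a log2 difference of 0.71 ± 0.12 (± SE, adjusted p = 7.9e-05), which is 1.63-fold. Under PF-303, anti-IgD raised Ciita by 0.50 ± 0.11 (adjusted p = 0.0010). Under vehicle, Ciita fell by 0.47 ± 0.12 (log2, adjusted p = 0.0033). The difference between the responses, 0.97 ± 0.17 (adjusted p = 9.6e-04), was tested as an interaction.

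The fall of Ciita under vehicle is the less certain of these changes. The 2 highest PBS arrays, at 779 and 1040.2, are arrays of high control signal, and with the 12 arrays the fall was -0.21 ± 0.09 (adjusted p = 0.072). With those 12 arrays the rise under PF-303 was 0.45 ± 0.08 and the interaction 0.66 ± 0.12 (adjusted p = 0.0059). In order of mean log2 level, anti-IgD with vehicle was lowest, then PBS with PF-303, PBS with vehicle and anti-IgD with PF-303. With all arrays no neighbours in that order differed by the test. With the 12 arrays anti-IgD with PF-303 was called above PBS with vehicle (0.45). It was also called above that group without array 4 of PBS with vehicle (0.39).

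The other Ciita probe sets were called in the same direction as this one after anti-IgD with either drug treatment. The same held for PF-303 under anti-IgD and for the interaction. The order of the groups was the same in 1421210_at and differed in 1447075_at. In 1421210_at the group means were 583 ± 35.7 (SD, n = 4) with PBS and vehicle, 549 ± 50.9 (n = 5) with PBS and PF-303, 453 ± 14.3 (n = 4) with anti-IgD and vehicle and 724 ± 65.8 (n = 5) with anti-IgD and PF-303. Its within-group deviations had a correlation of -0.30 with the control signal, against 0.61 for the probe set used above, over 18 arrays. Anti-IgD lowered it by 0.35 ± 0.09 with vehicle (-0.35, adjusted p = 0.0020) and raised it by 0.39 ± 0.08 with PF-303, an interaction of 0.74 ± 0.12 (adjusted p = 5.3e-04). In this probe set anti-IgD with PF-303 was also called above PBS with vehicle (0.30 ± 0.08, adjusted p = 0.0097) and anti-IgD with vehicle below PBS with PF-303 (-0.26 ± 0.08, adjusted p = 0.010). For 1447075_at, the weakest, the interaction was 1.12 ± 0.20 (adjusted p = 0.0016). Its lowest group was PBS with PF-303, at 116 ± 25.6 (SD, n = 5) beside 118 ± 12.6 (n = 4) for anti-IgD with vehicle, and its vehicle groups overlapped. All 3 Ciita probe sets were called lower after anti-IgD with vehicle, where 42.7% of all probe sets tested were called in either direction. All 3 were called higher after anti-IgD with PF-303, where 28.7% were called in either direction. They were also higher with PF-303 than with vehicle under anti-IgD, where 26.3% were called in either direction.

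**Figure D1:**
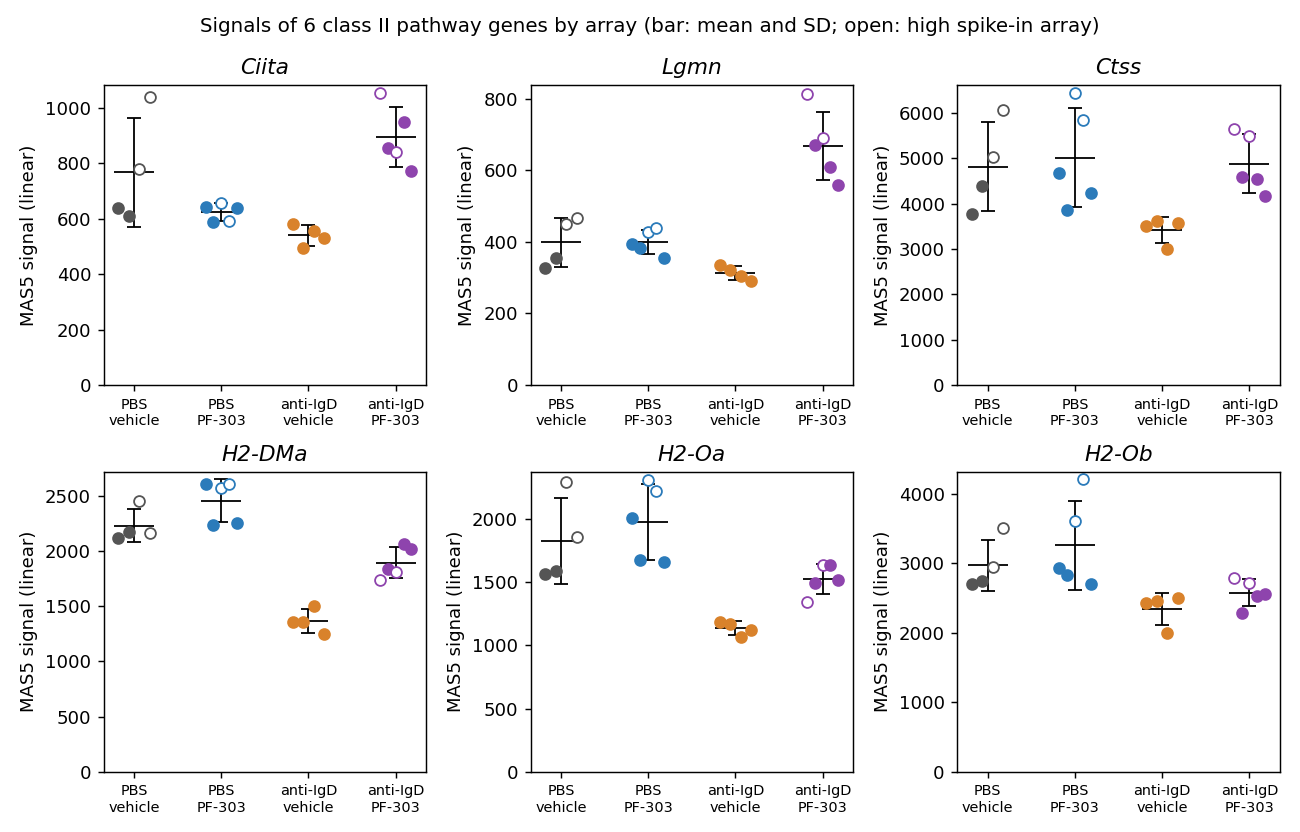
MAS5 signal (linear axis from 0) on each array for 6 genes in the 4 groups, with the group mean and SD as bars and arrays of high control signal as open circles. Ciita and Lgmn are highest with anti-IgD and PF-303, while H2-DMa and H2-Oa are lowest with anti-IgD and vehicle and lie between that group and PBS when PF-303 was given.

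Lgmn, the legumain gene, had the largest change among the 10. Its signals were 328, 354, 449 and 466 with PBS and vehicle, and 393, 384, 429, 438 and 355 with PBS and PF-303. They were 335, 322, 306 and 292 with anti-IgD and vehicle, and 813, 671, 689, 610.2 and 560.1 with anti-IgD and PF-303. Every array of anti-IgD with PF-303 was above every other array of the study. PF-303 raised Lgmn under anti-IgD by 1.05 ± 0.11 (adjusted p = 2.5e-07), 2.06-fold, and anti-IgD raised it under PF-303 by 0.71 ± 0.10 (adjusted p = 7.2e-06). The interaction was 1.03 ± 0.15 (adjusted p = 2.3e-04) with all arrays and 0.79 ± 0.12 (adjusted p = 0.0017) with the 12. Anti-IgD with vehicle gave -0.32 ± 0.11 (adjusted p = 0.022) against PBS. That call was lost with the 12 arrays (-0.12, adjusted p = 0.31) and on leaving out array 3 (-0.26) or 4 (-0.24) of PBS with vehicle, or array 5 of the stimulated vehicle group (-0.29).

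Ctss, the protease that finishes invariant chain cleavage in B cells, was lowest after anti-IgD with vehicle. Its signals there were 3504, 3621, 2993 and 3576, below all 4166 to 5642 with anti-IgD and PF-303 and below all 3774 to 6065 with PBS and vehicle. With PBS and PF-303 they ran from 3864 to 6449. PF-303 raised Ctss under anti-IgD by 0.51 ± 0.15 (adjusted p = 0.015), and by 0.37 ± 0.09 (adjusted p = 0.0059) with the 12 arrays. Without replicate 4 of anti-IgD with vehicle this was 0.44 (adjusted p = 0.058). Anti-IgD with vehicle gave -0.47 ± 0.16 against PBS (adjusted p = 0.019). With the 12 arrays it gave -0.25 (adjusted p = 0.064), and the call was also lost without array 4 of PBS with vehicle (-0.35) or array 4 of the stimulated vehicle group (-0.41). With PF-303, anti-IgD gave -0.02 ± 0.14 (adjusted p = 0.93) for Ctss. The interaction was 0.45 ± 0.22 (adjusted p = 0.21), so the main fit did not show the responses to differ. Leaving out single arrays aside, 1 of 12 alternatives changed that.

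The peptide exchange genes changed with anti-IgD under either drug treatment. H2-DMa, the alpha chain of H2-DM, had signals of 2119.7, 2173, 2452 and 2166 with PBS and vehicle and 1352, 1354, 1505 and 1249.7 with anti-IgD and vehicle. With PF-303 they were 2608, 2232, 2573, 2602 and 2248 after PBS and 1735, 1835, 1811, 2064 and 2020.0 after anti-IgD. The anti-IgD groups were thus separate from each other and from their PBS groups. H2-DMa fell by 0.70 ± 0.09 after anti-IgD with vehicle (-0.70, adjusted p = 1.1e-06) and by 0.37 ± 0.08 with PF-303 (adjusted p = 9.3e-04), and PF-303 raised it under anti-IgD by 0.47 ± 0.08 (adjusted p = 2.1e-04). Its interaction was 0.33 ± 0.12 (adjusted p = 0.086), so the responses were not shown to differ. A second, dim H2-DMa probe set, 1459872_x_at, also fell after anti-IgD (-0.77 ± 0.17 with vehicle, -0.68 ± 0.15 with PF-303). There PF-303 against vehicle under anti-IgD gave 0.16 ± 0.16 (adjusted p = 0.50), which did not pass the test.

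H2-Oa, the alpha chain of the H2-DM inhibitor, ran alongside H2-DMa. Its signals were 1564, 1589, 2296 and 1859 with PBS and vehicle, 1184, 1172, 1066 and 1123 with anti-IgD and vehicle, and 1346, 1491, 1633, 1638 and 1521 with anti-IgD and PF-303. With PBS and PF-303 they were 2010.2, 1676, 2312, 2222 and 1662. The arrays of anti-IgD with vehicle lay below all others. H2-Oa fell by 0.66 ± 0.12 after anti-IgD with vehicle (-0.66, adjusted p = 9.6e-05) and was higher with PF-303 than with vehicle under anti-IgD by 0.42 ± 0.11 (adjusted p = 0.0078). With PF-303, anti-IgD gave -0.36 ± 0.11 (adjusted p = 0.012) against PBS with all arrays and -0.20 (adjusted p = 0.089) with the 12. The interaction of H2-Oa was 0.30 ± 0.16 (adjusted p = 0.27), so its responses were not shown to differ.

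H2-Ob, the beta chain of H2-O, had group means of 2975 ± 367 (SD, n = 4) with PBS and vehicle, 3257 ± 637 (n = 5) with PBS and PF-303, 2348 ± 231 (n = 4) with anti-IgD and vehicle and 2577 ± 194 (n = 5) with anti-IgD and PF-303. After anti-IgD it was -0.34 ± 0.13 (adjusted p = 0.035) with vehicle and -0.32 ± 0.11 (adjusted p = 0.036) with PF-303. Neither call held with the 12 arrays (-0.22, adjusted p = 0.075, and -0.20, adjusted p = 0.11). Leaving out array 3 (-0.34) or 4 (-0.26) of PBS with vehicle, or array 4 of the stimulated vehicle group (-0.26), ended the first. The other ended without array 3 (-0.28) or 4 (-0.22) of the PBS group given PF-303, or array 2 (-0.28), 4 (-0.31) or 5 (-0.32) of the anti-IgD group given PF-303. PF-303 against vehicle under anti-IgD was 0.14 ± 0.12 for H2-Ob, with an adjusted p of 0.44.

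The classical chains and Cd74 did not pass the test in any comparison of the main fit with all arrays. Some other fits called them. With only the anti-IgD groups fitted, PF-303 against vehicle called Cd74, H2-Aa and H2-Ab1 higher. Quantile normalization called Cd74 lower after anti-IgD with vehicle. Cd74 had signals of 5513, 5823, 9347 and 13782 with PBS and vehicle and 5577, 6053, 4259.9 and 6103 with anti-IgD and vehicle. With PF-303 they were 6505, 5404, 11778, 9228 and 5372 after PBS and 10671, 6638, 10994, 7127 and 6039 after anti-IgD. The 6 arrays of high control signal held the 6 highest values, 9228 to 13782, and the other 12 ran from 4259.9 to 7127. Within groups, Cd74 had a correlation of 0.98 with the control signal over the 18 arrays, a description of arrays that share scaling. Anti-IgD with vehicle gave -0.56 for Cd74 with a 95% interval from -1.14 to 0.02, and -0.06 ± 0.14 with the 12 arrays.

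H2-Aa, H2-Ab1 and H2-Eb1 behaved likewise. H2-Aa was 11843 to 15650 on the 6 arrays and 5752 to 10284 on the 12. After anti-IgD with vehicle, H2-Aa gave -0.39 (95% interval -0.98 to 0.20), H2-Ab1 -0.23 (-0.72 to 0.26) and H2-Eb1 -0.26 (-0.72 to 0.19), and with the 12 arrays these were 0.08, 0.07 and 0.06. Under anti-IgD, PF-303 against vehicle gave 0.55 for H2-Aa (-0.01 to 1.12), 0.43 for H2-Ab1 (-0.03 to 0.90) and 0.41 for H2-Eb1 (-0.02 to 0.85), and with the 12 arrays 0.29, 0.26 and 0.19. H2-Ab1 under PF-303 went from 0.25 ± 0.21 after anti-IgD with all arrays to 0.42 ± 0.14 (adjusted p = 0.028) with the 12. The H2-Ab1 probe sets 1425477_x_at and 1451721_a_at changed less with all arrays. After anti-IgD they gave 0.02 ± 0.17 and -0.12 ± 0.20 with vehicle, and 0.14 ± 0.16 and 0.16 ± 0.18 with PF-303. PF-303 against vehicle under anti-IgD gave 0.20 ± 0.17 and 0.32 ± 0.19, and none of these was called. Of the 4 H2-Aa probe sets, 3 were bright and moved together, while the dimmest, 1443783_x_at, gave 0.33 ± 0.16 (adjusted p = 0.11) after anti-IgD with vehicle.

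**Figure D2:**
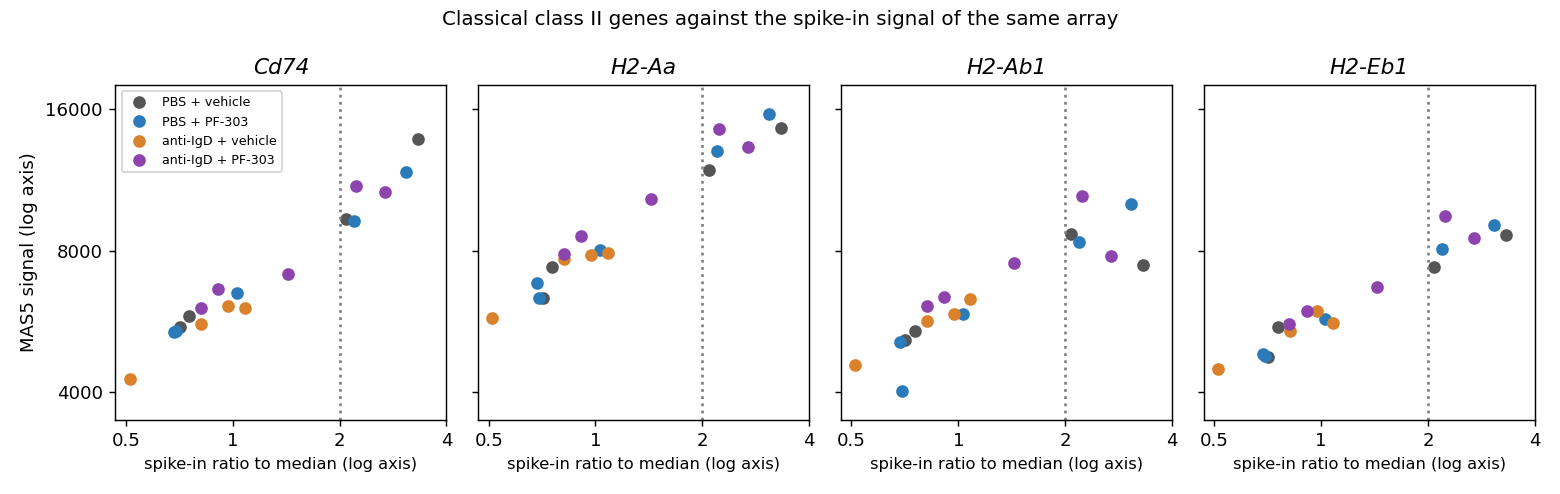
Signal of the classical class II genes and Cd74 (log axis) against the control signal of the same array as a ratio to its median (log axis), coloured by group, with a dotted line at 2. All 6 arrays right of the line lie at the top for Cd74 and H2-Aa, and no array of anti-IgD with vehicle is among them.

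Over the 10 genes, anti-IgD with vehicle called 6 lower and 0 higher, where 47.9% of all 11104 genes tested were called, 30.6% lower and 17.4% higher. The 6 were Ciita, H2-DMa, H2-Oa, H2-Ob, Ctss and Lgmn, and at an unadjusted p under 0.05 limma also gave none higher. The median log2 fold change of the 10 was -0.43, beside -0.13 over all genes. With the 12 arrays 2 of the 10 were called lower, H2-DMa (-0.65) and H2-Oa (-0.47), and without replicate 4 of PBS with vehicle 3 were. With all arrays and the control signal as a covariate 5 were. PF-303 against vehicle under anti-IgD called 5 higher and 0 lower, Ciita, Lgmn, H2-DMa, H2-Oa and Ctss, where 30.2% of all genes were called, 19.8% higher and 10.4% lower. At an unadjusted p under 0.05 limma gave 6 higher, with Cd74, and none lower. Its median was 0.49 beside 0.08, and the same 5 were called with the 12 arrays. With the row letter of a position code in the labels as a block, H2-Oa (0.25, adjusted p = 0.25) and Ctss (0.36, adjusted p = 0.34) were not called. The rows were uneven over the groups. Anti-IgD with vehicle had 1 array in row C, 1 in row D, where no other array lay, and 2 in row E. Only row C held it together with PBS and vehicle or with anti-IgD and PF-303. A call lost with this block therefore cannot be assigned to position. Anti-IgD against PBS with vehicle and PF-303 against vehicle under anti-IgD share the arrays of anti-IgD with vehicle.

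In mice given PBS, PF-303 called 0 of the 10 genes, where 0.747% of all genes were called, 0.072% higher and 0.675% lower. At an unadjusted p under 0.05 limma gave 1, Ciita, at -0.26 (95% interval -0.50 to -0.02), and -0.00 with the 12 arrays. The narrowest interval among the others was that of H2-DMa, from -0.04 to 0.31. Anti-IgD under PF-303 called 2 higher (Ciita and Lgmn) and 3 lower (H2-DMa, H2-Oa and H2-Ob), where 33.8% of all genes were called, 14.7% higher and 19.1% lower. The interaction called Ciita and Lgmn, 2 of 10, where 9.78% of all genes were called, 6.66% higher and 3.12% lower. Anti-IgD with PF-303 against PBS with vehicle called Lgmn higher (0.73 ± 0.11, adjusted p = 2.0e-05) and H2-DMa lower (-0.23 ± 0.08, adjusted p = 0.047), where 25.5% of all genes were called, 12% higher and 13.4% lower. With the 12 arrays Ciita was also called higher (0.45). The call of H2-DMa was lost with the 12 arrays (-0.12) and on leaving out any of 11 arrays, with values from -0.26 to -0.19. These were replicates 1 to 4 of PBS with vehicle, 1 of PBS with PF-303, 1, 2 and 5 of anti-IgD with vehicle and 1 to 3 of anti-IgD with PF-303.

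**Figure D3:**
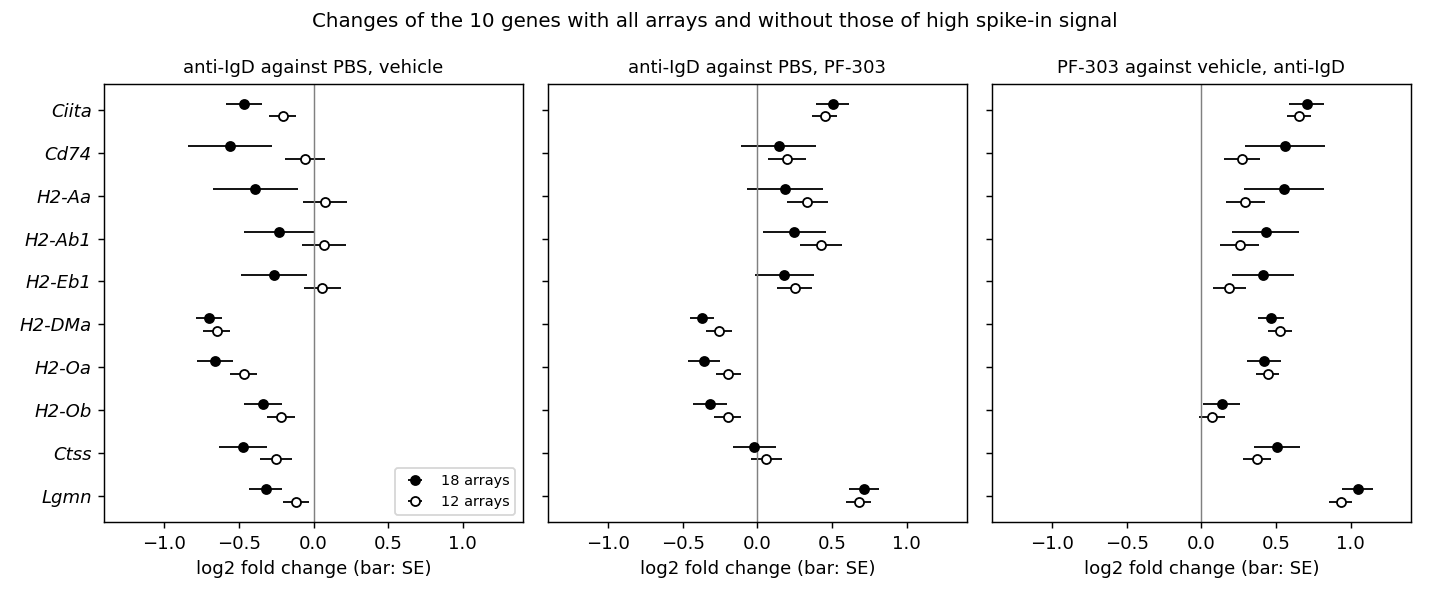
Log2 fold change with SE for the 10 genes in 3 comparisons, filled for all 18 arrays and open for the 12 without high control signal. The open points of Cd74 and the classical chains move towards 0 in the left panel, whereas H2-DMa stays at -0.65 and Lgmn in the right panel at 0.93.

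Of 12 factors and cofactors that act with Ciita at class II promoters, 8 fell and 1 rose after anti-IgD with vehicle, where 30.6% of all genes fell and 17.4% rose. Their median was -0.30 beside -0.13 over all genes. With arrays shifted to one median 3 were lower and 1 higher (19.6% and 25% of all genes), and the calls of Creb1, Nfya, Nfyb, Rfx5 and Rfxap were lost. Quantile normalization and the row block each left 5 lower. Kat2b, an acetyltransferase, gave -0.90 ± 0.11 and Rfxank, an RFX subunit, -0.71 ± 0.13 (adjusted p = 9.1e-05), while Smarca4, a chromatin remodelling ATPase, rose by 0.29 ± 0.09. Smarca4 was not called with its probe sets averaged (0.20, adjusted p = 0.053) or with the row block (0.32, adjusted p = 0.059). PF-303 under anti-IgD raised 2 of the 12 (19.8% of all genes), Rfxank (0.58 ± 0.12) and Kat2b (0.35 ± 0.10), and with the probe sets of a gene averaged these were 0.22 (adjusted p = 0.065) and 0.24 (adjusted p = 0.070). Rfxank was also not called with the row block (0.50, adjusted p = 0.059), nor Kat2b with one median (0.24, adjusted p = 0.080), where 1 of the 12 was higher and 2 lower. Under PF-303, anti-IgD lowered 3 (19.1% of all genes), and 5 with averaged probe sets, with Kat2b at -0.82 ± 0.09 and Creb1, which encodes CREB, at -0.43 ± 0.07. Of the other class II chains, 2 of the 4 listed were tested, and H2-DMb2, a beta chain of H2-DM, fell after anti-IgD with vehicle (-0.58 ± 0.18, adjusted p = 0.011). It was not called without replicate 4 of PBS with vehicle (-0.35, adjusted p = 0.057), with one median (-0.42, adjusted p = 0.070) or with the row block (-0.40, adjusted p = 0.27).

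Of 13 measured regulators of Ciita transcription, 7 fell and 3 rose after anti-IgD with vehicle, beside 30.6% and 17.4% of all genes, and with one median 6 and 3. Irf4, which drives activated B cells towards plasma cells, rose most (2.14 ± 0.12), and Prdm1, a repressor of Ciita in plasma cells, rose by 1.07 ± 0.13 and Irf8 by 0.57 ± 0.12. Tcf3, which encodes the E proteins E12 and E47, fell most (-1.42 ± 0.10). PF-303 under anti-IgD raised 4 (19.8% of all genes), among them Ets1 (0.91 ± 0.13) and Foxo1 (0.60 ± 0.11), and lowered Irf4 (-0.49 ± 0.12) and Bach2 (-0.28 ± 0.09), where 10.4% of all genes fell. With the row block 3 were higher and 1 lower. Bach2 was at -0.13 (adjusted p = 0.54) with the row block and -0.09 (adjusted p = 0.43) with its probe sets averaged, and was also not called when array 1 (-0.23) or 4 (-0.26) of the stimulated vehicle group, or array 2 (-0.24) or 3 (-0.24) of the stimulated PF-303 group, was left out. Irf4 (2.07 ± 0.11), Prdm1 (0.96 ± 0.11) and Irf8 (0.52 ± 0.10) also rose after anti-IgD with PF-303 (14.7% of all genes), and 5 others fell (19.1%), or 3 with no filter, one median or the row block. In the interaction 4 were called higher (6.66% of all genes), and 1 with one median or the row block and 2 with quantile normalization, the control signal as a covariate or the 12 arrays. Among the 4 were Ets1 at 0.93 ± 0.19 (adjusted p = 0.0030) and Spi1, which encodes PU.1, at 0.66 ± 0.19 (adjusted p = 0.029). With the 12 arrays Spi1 was at 0.33 (adjusted p = 0.34). Its call also ended, at 0.54 to 0.64, without array 3 or 4 of PBS with vehicle, 5 of PBS with PF-303, 4 or 5 of the stimulated vehicle group, or 3 of the stimulated PF-303 group.

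Endosomal proteases and their helpers moved in both directions after anti-IgD. With vehicle, 3 of 14 rose and 4 fell, near the 17.4% and 30.6% of all genes. With one median 7 rose, with Ctsa, Ctsb, Ctsd and Ctsz added, and 4 fell (25% and 19.6%). Among the falls were Ifi30, the lysosomal thiol reductase, at -0.85 ± 0.11 and Sppl2a, the membrane protease that clears the invariant chain stub, at -0.71 ± 0.09. Cstb, a cathepsin inhibitor, rose by 0.62 ± 0.11, Tpp1, a tripeptidyl peptidase, by 0.37 ± 0.10, and Ctsl, a cathepsin, by 0.68 ± 0.22. Ctsl was no longer called with the row block (0.30, adjusted p = 0.48), with the 12 arrays (0.50, adjusted p = 0.11) or without array 4 of PBS with vehicle (0.54) or array 2 (0.56) or 4 (0.53) of the stimulated vehicle group. PF-303 under anti-IgD raised 8 of the 14 (19.8% of all genes), and 5 with the row block (9.63%), with Ifi30 (0.66 ± 0.10) and Tpp1 (0.57 ± 0.09) at the top. With PF-303, anti-IgD raised 6 (14.7% of all genes), led by Cstb (0.96 ± 0.10) and Tpp1 (0.93 ± 0.09), and lowered Sppl2a (-0.52 ± 0.08), Ifi30 (-0.51 ± 0.10) and Cst3 (-0.37 ± 0.12), where 19.1% of all genes fell. Cst3, a cathepsin inhibitor, was at -0.29 (adjusted p = 0.096) with the row block and -0.21 (adjusted p = 0.099) with the 12 arrays, and its call ended without array 3 or 4 of PBS with PF-303 or array 1 or 5 of the stimulated PF-303 group, at -0.33 to -0.28. Tpp1 thus rose with Lgmn, and its interaction was 0.57 ± 0.13 (adjusted p = 0.0098), as that of Ctsa, a carboxypeptidase, was 0.51 ± 0.12. With the row block these were 0.44 (adjusted p = 0.22) and 0.37 (adjusted p = 0.20), and with averaged probe sets Ctsa was at 0.37 (adjusted p = 0.13).

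Among 10 genes of class II traffic and turnover, the ubiquitin ligase gene Marchf1, whose product marks class II molecules for degradation, fell most. Its mean signal was 1035 ± 105 (SD, n = 4) with PBS and vehicle, 1116 ± 73.5 (n = 5) with PBS and PF-303, 333 ± 27.8 (n = 4) with anti-IgD and vehicle and 735 ± 62.7 (n = 5) with anti-IgD and PF-303. The fall was -1.59 ± 0.09 with vehicle (adjusted p = 4.5e-12) and -0.59 ± 0.08 with PF-303, an interaction of 0.996 ± 0.12 (adjusted p = 2.3e-05). Cd83, which protects class II molecules from that ligase, rose by 1.69 ± 0.13 with vehicle and 2.16 ± 0.12 with PF-303. In mice given PBS, PF-303 lowered Cd83 (-0.67 ± 0.12, adjusted p = 0.0077). After anti-IgD with vehicle 3 of the 10 rose, the lysosomal genes Lamp1 (0.56 ± 0.08) and Rab7 (0.45 ± 0.07) with Cd83, and 4 fell, near the 17.4% and 30.6% of all genes. With one median 3 rose and 2 fell, and with averaged probe sets 5 rose and 4 fell. PF-303 under anti-IgD raised 5 (19.8% of all genes), and 2 with the row block (9.63%). Marchf1 was at 1.11 ± 0.08 and the tetraspanin gene Cd37 at 0.66 ± 0.17, which was not called with the row block (0.57, adjusted p = 0.15). The interaction of Cd37 was 0.79 ± 0.24 (adjusted p = 0.039), and 0.42 (adjusted p = 0.18) with the 12 arrays and 0.73 (adjusted p = 0.27) with the row block, and in each of the 4 groups some arrays, left out singly, also ended the call, at 0.58 to 0.82. Under PF-303, anti-IgD raised 4 (14.7% of all genes), Lamp2 (0.80 ± 0.19) among them, and lowered Marchf1, Cd9 (-0.58 ± 0.13) and Cd81 (-0.33 ± 0.06), where 19.1% of all genes fell.

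**Figure D4:**
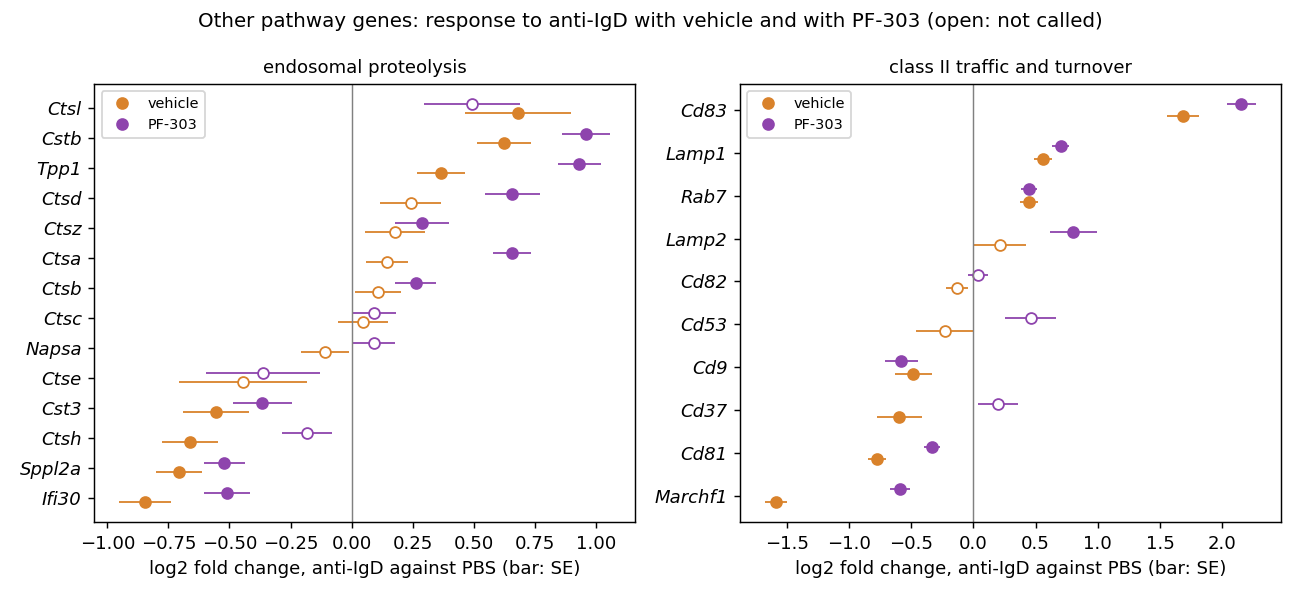
Log2 fold change of anti-IgD against PBS with SE for endosomal proteolysis genes (left) and class II traffic and turnover genes (right), with vehicle in orange and with PF-303 in purple, open where not called. Marchf1 lies at -1.59 with vehicle and -0.59 with PF-303, and Tpp1 at 0.37 and 0.93.

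Class I presentation genes, whose coactivator Nlrc5 is a protein of the same family as Ciita, changed in both directions. After anti-IgD with vehicle 9 of 18 fell and 2 rose, beside 30.6% and 17.4% of all genes, with a median of -0.36. With one median 5 fell and 5 rose (19.6% and 25% of all genes). There Tap2, Tapbp, Tapbpl and H2-M3 lost their calls, and Calr (0.41), Pdia3 (0.35) and Nlrc5 (0.30) were called higher. Cd1d1, which presents lipids, gave -1.39 ± 0.21 and Psmb9, an immunoproteasome subunit, -0.79 ± 0.09, whereas Erap1, a peptide-trimming peptidase, rose by 0.65 ± 0.10 and the chaperone gene Canx by 0.43 ± 0.09. PF-303 under anti-IgD raised 6 (19.8% of all genes), with Cd1d1 at 0.70 ± 0.20 and Psmb8 at 0.60 ± 0.08, and lowered Erap1 (-0.45 ± 0.10, and -0.43, adjusted p = 0.051, with the row block). With PF-303, anti-IgD lowered 7 (19.1% of all genes), led by Cd1d1 (-0.98 ± 0.19), and raised Erap1 (0.46 ± 0.09), Canx (0.41 ± 0.08) and Calr, a chaperone gene, which was at 0.28 ± 0.10 with all arrays and 0.12 (adjusted p = 0.35) with the 12, 0.16 (adjusted p = 0.25) with quantile normalization and 0.19 (adjusted p = 0.25) with the row block, and lost its call without array 3 of either PF-303 group (0.20 and 0.21). The interaction called Psmb8 (0.40 ± 0.12, adjusted p = 0.034) and Psmb9 (0.38 ± 0.12, adjusted p = 0.043), where 6.66% of all genes were called higher. With one median the adjusted p was 0.18 and 0.22 and with the row block 0.40 and 0.46, and averaged probe sets put Psmb8 at 0.18 (adjusted p = 0.50). In each of the 4 groups some arrays, left out singly, also ended each call, at 0.34 to 0.41. Cd1d1 is also in the list of marginal zone and B1 B-cell markers. The summed signal of that list was 3802 to 4389 with anti-IgD and vehicle and 4954.5 to 6506 over the other groups. Its members moved in both directions after anti-IgD with vehicle. Cd1d1, Mzb1 (-1.23), Cd9 (-0.48) and Dtx1 (-0.31) were called lower, S1pr3 (1.10) and Cd5 (0.90) higher, and Zbtb32 (0.02) was not called. A change in cell composition was not tested.

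The genes whose log2 signals ran most like Ciita over the 18 arrays, by Pearson's r, were Dtx1 (0.93), Ly9 (0.92), Scamp3 (0.92), Sema7a (0.91) and Rhobtb2 (0.91). Those most like Cd74 were Rps24, H2-K1, Actb, Rpl38 and Eef1a1, with r from 0.98 to 0.99, all bright genes on arrays that share the control signal. These are descriptions over arrays of 4 groups. Dtx1, like Ciita, was lower after anti-IgD with vehicle (-0.31, adjusted p = 0.031) and higher with PF-303 than with vehicle under anti-IgD (0.72, adjusted p = 2.8e-05).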

How the data were processed

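The authors deposited 1 linear intensity (MAS5 signal) for each probe set and array, computed with MAS5 per the submitters' processing notes, with no version or setting given in the sources used here. The 18 arrays share a 2%-trimmed mean near 100.0, so changes are relative to the rest of the array. The 10 genes, the gene lists and the tests were chosen with earlier results of these data known. Control probe sets were left out. Signals were taken as log2(signal + 16), which makes changes of dim genes smaller. Probe sets were kept where 4 or more arrays exceeded 15.2, the overall median value, and the brightest per gene was used (11104 genes). limma 3.58.1 in R 4.3.3 (lmFit, eBayes with trend) fitted 1 mean per group over all arrays. Tests were two-sided, adjusted by Benjamini-Hochberg over all genes within each comparison and called at an adjusted p under 0.05. A second fit held all 20836 named probe sets over the filter. The script was tested on simulated data. Errors are SE for fold changes and SD for signals.

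Named were the 10 genes at each probe set, per list the 2 called genes of largest change and any called against most, and the 5 genes most like Ciita and Cd74. Alternatives were other offsets, no filter, other scaling, blocks or a covariate, fewer arrays, averaged probe sets and fits without trend or on the contrast's groups alone. No arrays held identical values, and the number of arrays limits the precision. Replicate numbers were not taken to pair the samples.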

Additional observations from a re-analysis of the deposited data

Results flagged for a closer look

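The responses of Ciita and Lgmn to anti-IgD differed between PF-303 and vehicle by the interaction test, with differences of 0.97 and 1.03 on the log2 scale. In 5 of the 72 groups of arrays examined, 1 array lay far from the rest, where chance gives about 1 in 20. Replicate 3 of PBS with vehicle had the highest H2-DMa signal, 2452 against 2173 for the next. Replicate 3 of anti-IgD with PF-303 was highest for the H2-Ab1 probe set 1425477_x_at, 5879.6 against 4452, and both are arrays of high control signal. Replicate 4 of anti-IgD with vehicle was lowest for H2-Aa, 5752 against 7663, and for H2-Ob, 2003 against 2429, and had the lowest control signal of the study, 0.512 times the median. Replicate 4 of anti-IgD with PF-303 was lowest for the dim H2-Aa probe set 1443783_x_at, 723 against 1103.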

How the results depend on the processing

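For anti-IgD against PBS with vehicle, 6 of the 10 genes were called. This became 3 with arrays shifted to one median, 3 with the replicate block, 2 with the row letter of the position code in the labels as a block and 2 without the 6 arrays of high control signal. It was 5 with the control signal as a covariate and 7 with quantile normalization, and it ran from 3 to 7 when single arrays were left out. For PF-303 against vehicle under anti-IgD it went from 5 to 3 with one median and 3 with the row block. With only the groups of the contrast it was 8, with Cd74, H2-Aa and H2-Ab1 added. For anti-IgD with PF-303 against PBS with vehicle it went from 2 to 1 with no filter, one median, the replicate block, the row block or only the groups of the contrast, to 4 with quantile normalization or the control signal as a covariate, and ran from 1 to 2 without single arrays. The cause was not tested. Ciita and Lgmn kept their calls in every alternative run for the interaction, for PF-303 against vehicle under anti-IgD and for anti-IgD under PF-303. Ciita after anti-IgD with vehicle was at -0.46 (adjusted p = 0.052) with the row block. Besides leaving out single arrays, 13 alternatives were run, the 12 arrays among them. In these the call after anti-IgD with vehicle changed 6 times for Lgmn, 5 for H2-Ob, 4 for Ctss and 3 for Ciita. For H2-DMa and H2-Oa it changed 0 times. Quantile normalization, which put H2-Aa at 0.08, called Cd74 at -0.16 (adjusted p = 0.028). With quantile normalization and the 12 arrays, chosen after seeing the data, 4 genes were called after anti-IgD with vehicle.

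Deviations of same-numbered samples of different groups had a median r of -0.003 over 24 pairs. Over 97 pairs of different number it was -0.02. Such correlations cannot exclude a pairing. Over all genes, the row block called 1725 in place of 3352 for PF-303 under anti-IgD and 291 in place of 1086 for the interaction, which was 715 without the 6 arrays. PF-303 with PBS called 83, and 42 with the row block, 46 without the 6 arrays, 28 with only its groups and 154 with the covariate. Shifting arrays to one median moved the median change of all genes after anti-IgD with vehicle from -0.13 to 0.04, and that of the 10 genes from -0.43 to -0.26. The share of called genes that were higher went from 36.2% to 56.0% with one median and 47.1% with quantile normalization after anti-IgD with vehicle. For PF-303 under anti-IgD it went from 65.7% to 43.1% and 52.1%, for the interaction from 68.1% to 33.4% and 53.2%, and for anti-IgD with PF-303 against PBS with vehicle from 47.2% to 59.5% with one median.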
